A study of Mus musculus with 7 samples.

Results

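The 32 genes described here encode the enzymes that make, recycle and use glutathione: glutathione transferases, glutathione peroxidases, both subunits of glutamate-cysteine ligase, glutathione synthetase and glutathione reductase. They were chosen by symbol from a table of log2 expression levels in which 18820 genes were represented. A row qualified when its annotation gave exactly 1 symbol and that symbol began with Gsta, Gstk, Gstm, Gsto, Gstp, Gstt, Gstz, Mgst or Gpx and a number, or was Gclc, Gclm, Gss or Gsr. Gsta1, Gsta2, Gstm5, Gstp2 and Gstz1 had only rows shared with another gene's symbol, so these 5 genes are not among the members.

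Glutathione is a short peptide of glutamate, cysteine and glycine that keeps cells in a reduced state. Glutamate-cysteine ligase makes the first bond and sets the pace of synthesis, and glutathione synthetase adds the glycine. Transferases join glutathione to reactive compounds, peroxidases spend it to remove hydrogen peroxide and lipid peroxides, and the reductase restores it with NADPH. Many of these genes are targets of NRF2, a transcription factor activated by electrophiles. In fat cells, aldehydes formed from peroxidised lipids are among the substrates of the transferases.

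The SCD inhibitor group held 3 arrays of 3T3-L1, a mouse line of pre-adipocytes that can be turned into fat cells in culture, kept throughout differentiation in 1 µM of an inhibitor of stearoyl-CoA desaturase, the enzyme that puts a double bond into saturated fatty acids. The DMSO group held 4 arrays of the same line kept in the solvent alone. For the first 2 days both groups received the inducers dexamethasone, isobutylmethylxanthine and human insulin, then insulin alone, and RNA was taken on day 7. The labels call the compound a commercial SCD inhibitor without a name, they state no added allele, and both groups come from 1 line. The labels give the material as pre-adipocytes, while the series design calls it adipocytes. The labels do not state whether replicates are separate cultures, so the p-values rest on the spread among these arrays, and that spread may be technical.

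The values are log2 levels made with RMA, which corrects background, equalises the arrays and summarises the probes of a gene. Arrays within a group correlated at 0.99902 to 0.99948 over all genes. The 9 measured adipocyte markers had mean levels from 10.26 to 12.59 and none passed the test. The 4 hepatocyte markers lay between 3.34 and 5.11, and the 4 endothelial markers between 3.24 and 3.90. Of the SCD genes, Scd3 fell by 1.57 on the log2 scale (SE 0.0433), while Scd1 (0.03), Scd2 (-0.00, turning to 0.01 with arrays centred) and Scd4 (0.02) did not pass. Scd1 and Scd2, with mean levels of 13.06 and 12.56, and the brightest adipocyte markers lay near the highest value measured, 13.25. Whether such levels allow a change to be seen was not tested.

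With the inhibitor, 6 of the 32 glutathione genes were lower and none was higher at an adjusted p under 0.05 in limma. Over all 18820 genes, 4.37% were called lower and 3.62% higher. The decreases were those of the transferases Gsta3, Gstm7, Gstt3 and Gstm3 and of both ligase subunits, Gclc and Gclm. Gsta3 fell 2.07-fold and Gstm7 1.76-fold, whereas the other called differences were between -0.17 and -0.32 on the log2 scale. At an unadjusted p under 0.05, 13 members were lower and 3 higher, against 11.0% and 10.9% of all genes. The median difference of the members was -0.10, against -0.00 over all genes.

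The split of the calls depended on the scaling, on the model and on the arrays. A further quantile normalization gave 6 lower and 2 higher members, beside 5.43% and 5.88% of all genes. Centring each array on its median gave 6 lower and 1 higher, beside 5.01% and 5.94% of all genes. With the replicate number as a block, 4 members were lower and 0 higher, beside 2.44% and 2.32% of all genes. With 1 array left out the number of lower members was 3 when that array was DMSO 1, DMSO 3 or SCD inhibitor 3, and 2 when it was DMSO 2 or DMSO 4. It was 4 when SCD inhibitor 1 was left out and 5 when it was SCD inhibitor 2. The share of all genes called lower dropped as well, to between 2.87% and 3.42% in these fits. Gsta3 and Gstm7 were called in all 7 of these fits.

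**Figure D1:**
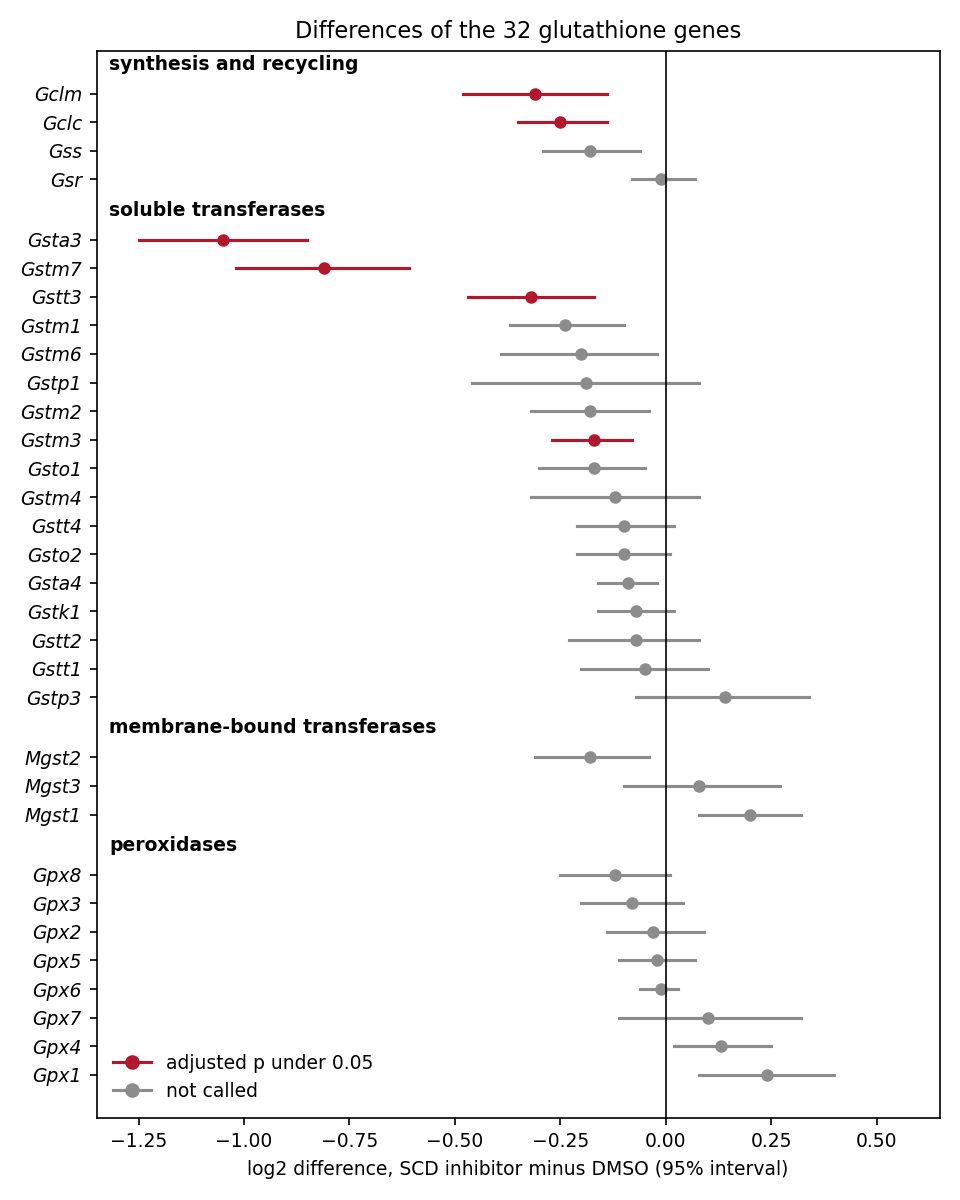
Log2 difference (SCD inhibitor minus DMSO) of the 32 genes by role, with 95% intervals from limma, 3 arrays against 4. Points in red passed an adjusted p of 0.05; Gsta3 at -1.05 and Gstm7 at -0.81 stand left of all others, and the 8 peroxidases lie between -0.12 and 0.24.

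A motif search in promoter windows covered 28 of the 32 genes, which had at least 1 window in RefSeq (build GRCm38.p6). The letters searched on both strands were TGACNNNGC, the core of the antioxidant response element that NRF2 binds, and TGATGNAA, an element bound by ATF4 with C/EBP partners. Each window in the table also runs 50 bases past a transcript start, and only the 250 bases before the start were searched, in members and in all other windows. TGACNNNGC was found for 4 of the 28 genes (14.3%), against 11.5% of the 27025 genes in the table, and in 10.2% of all 32851 windows. A gene counted when any of its windows held the motif, and the 28 genes had 39 windows. The shares per gene therefore also depend on the number of windows, and whether the members' share differs was not tested. TGATGNAA was found in none of the members' windows, against 3.45% of all windows, so no site of one motif overlaps the other here. A match is a description of the letters and does not show binding.

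All 4 sites are shown, and 3 of them stand before genes that fell with the inhibitor, out of 5 called genes with a window. Gclc, the other called gene, had no window and was not searched. Whether 3 of 5 differs from the 11.5% of all genes was not tested. Mgst1, which holds the other site, had a positive difference. Each is printed 5′ to 3′ on the strand where the motif reads forward, with the motif in capitals and 10 bases on either side.
Gsta3, chr1:21240454-21240482, plus strand: aactcaggcaTGACATTGCatttttcttc
Gstm7, chr3:107931725-107931753, minus strand: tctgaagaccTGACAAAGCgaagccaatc
Gclm, chr3:122245413-122245441, minus strand: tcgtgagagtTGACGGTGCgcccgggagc
Mgst1, chr6:138140461-138140489, minus strand: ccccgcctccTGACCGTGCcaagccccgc
The site starts 121 bases before the transcript start in Gsta3 and 129 bases before it in Gstm7. In Gclm and Mgst1 the motif reads on the strand opposite to the gene. The Gstm7 site lies inside the annotated span of the gene, since another Gstm7 transcript starts further out, and the other 3 lie outside their genes' spans.

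Since Gsta3 had the largest difference of the members, its upstream stretch is given whole, from chr1:21240335-21240564 on the plus strand of GRCm38.p6, the 230 bases of the window that precede the annotated gene, with TGACNNNGC in capitals.
Gsta3 upstream: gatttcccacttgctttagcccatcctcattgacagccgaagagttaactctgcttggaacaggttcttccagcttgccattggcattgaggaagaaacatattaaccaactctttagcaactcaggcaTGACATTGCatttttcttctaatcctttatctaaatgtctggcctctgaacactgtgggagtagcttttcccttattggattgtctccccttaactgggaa

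Transcripts of both parts of the enzyme that sets the pace of synthesis were lower. Gclc, the catalytic subunit of glutamate-cysteine ligase, read 8.62, 8.71 and 8.67 in the SCD inhibitor arrays, against 8.99, 8.93, 8.82 and 8.91 in the DMSO arrays. Every inhibitor array lay below every DMSO array. The difference was -0.25 (SE 0.0431, adjusted p = 0.0177 in limma, n = 3 against 4). Gclm, the modifier subunit that raises the affinity of the enzyme for glutamate, read 9.94, 10.12 and 9.94 with the inhibitor, against 10.19, 10.43, 10.25 and 10.35 in DMSO. Its groups did not overlap either, although SCD inhibitor 2 came close to DMSO 1. Gclm fell by 0.31 on the log2 scale, or 1.24-fold (SE 0.0704, adjusted p = 0.046 in limma).

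Neither ligase call held in every fit without 1 array. Lower calls over all genes also dropped in these fits, from 823 to between 541 and 643. Leaving out DMSO 2 gave Gclc an adjusted p of 0.0601 in limma, leaving out DMSO 4 gave 0.0614, and leaving out SCD inhibitor 1 or SCD inhibitor 3 gave 0.0631 or 0.0716. For Gclm the value was 0.0555 with DMSO 1 left out, 0.0976 with DMSO 2, 0.0987 with DMSO 3, 0.136 with DMSO 4, 0.137 with SCD inhibitor 1 and 0.158 with SCD inhibitor 3 left out. The differences themselves moved little, from -0.28 to -0.22 for Gclc and from -0.37 to -0.27 for Gclm. With the replicate number as a block, Gclc lost its call and Gclm kept it.

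The 2 later enzymes did not pass. Gss, which adds glycine, read 8.33, 8.51 and 8.38 with the inhibitor, against 8.56, 8.58, 8.65 and 8.54 in DMSO. Its groups did not overlap, and its difference of -0.18 had an adjusted p of 0.0829 in limma, or 0.0299 without SCD inhibitor 2. It also passed with a further quantile normalization (0.0481) and with centred arrays (0.0369). Gsr, the reductase that restores glutathione, read 10.86, 10.95 and 10.99 with the inhibitor, against 10.95, 10.95, 10.95 and 10.92 in DMSO. Its inhibitor values straddled the DMSO values, with a difference of -0.01 and a 95% interval from -0.08 to 0.07.

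**Figure D2:**
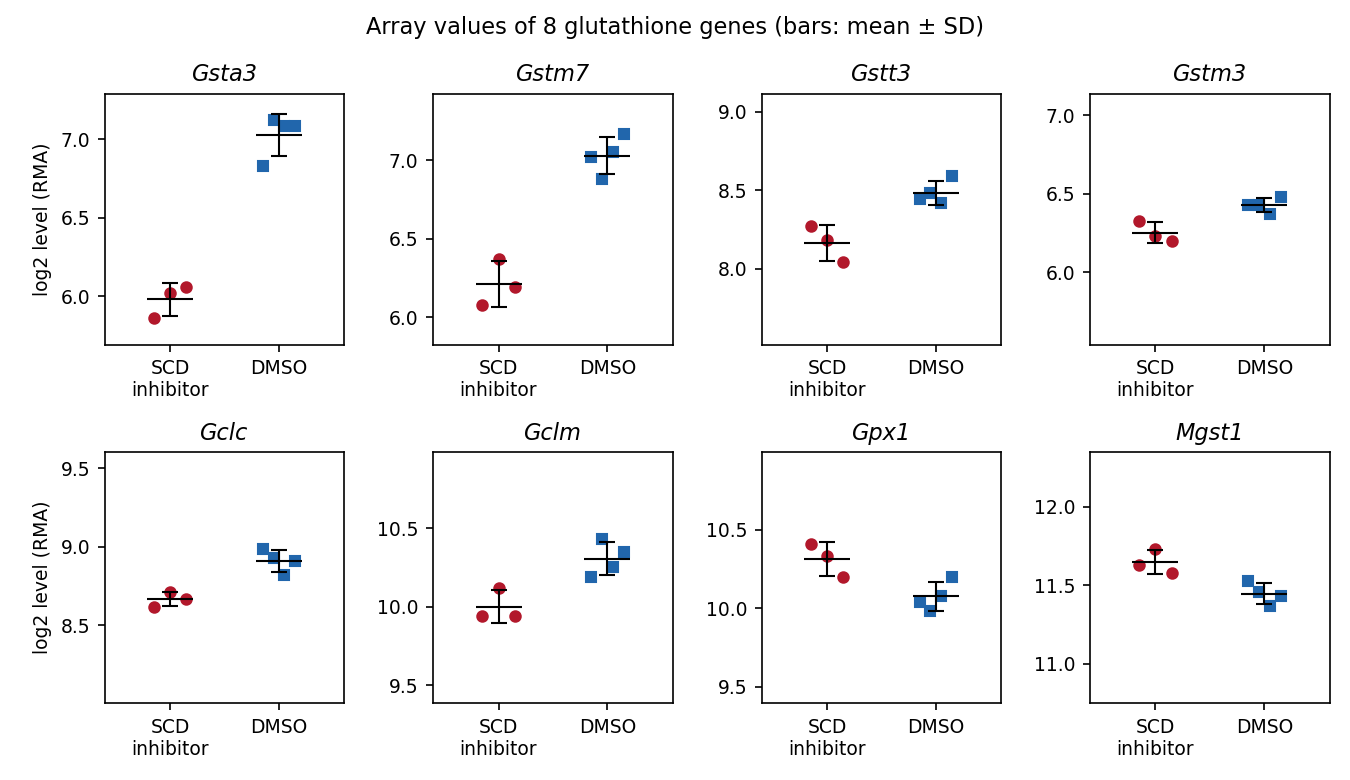
Log2 level (RMA) of 8 genes on every array, SCD inhibitor (red circles, 3 arrays) and DMSO (blue squares, 4 arrays), with mean and SD in black and an equal span on all axes. Gsta3 and Gstm7 show the widest gap between the groups, and Gpx1 and Mgst1 have higher means with the inhibitor.

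Among the 17 soluble transferases, 4 fell and 13 did not pass. Gsta3, an alpha-class transferase known in the mouse for detoxifying the mould toxin aflatoxin, read 5.86, 6.02 and 6.06 with the inhibitor, against 6.83, 7.12, 7.08 and 7.08 in DMSO. The groups were separated by more than the range within either of them. The difference was -1.05 (SE 0.0827, adjusted p = 0.00073 in limma), with a 95% interval from -1.25 to -0.85. Gsta4, the other alpha-class member, conjugates aldehydes from lipid peroxidation such as hydroxynonenal, and it did not pass. It averaged 10.02 ± 0.0465 with the inhibitor and 10.11 ± 0.0319 in DMSO (SD, n = 3 and 4), a difference of -0.09 with an interval from -0.16 to -0.02.

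The mu class had 6 members, which RefSeq (GRCm38.p6) places on chromosome 3 in the order Gstm7, Gstm6, Gstm3, Gstm2, Gstm1 and Gstm4. All 6 had negative differences, from -0.81 to -0.12, and 2 passed. Gstm7, a mu-class transferase, read 6.08, 6.37 and 6.19 with the inhibitor, against 7.02, 6.88, 7.05 and 7.17 in DMSO. Its highest inhibitor value, on SCD inhibitor 2, was still below its lowest DMSO value. The difference was -0.81 (SE 0.0872, adjusted p = 0.0027 in limma). Mu-class genes are close paralogs, so probes may take up RNA of more than 1 of them, to an extent that was not tested.

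Gstm3 read 6.33, 6.23 and 6.20 with the inhibitor, against 6.43, 6.43, 6.37 and 6.48 in DMSO. The groups did not overlap but lay close together. The difference of -0.17 (SE 0.0392) had an adjusted p of 0.0442 in limma, the call of a gene with 2 disagreeing rows. The other Gstm3 row, with means of 4.44 in inhibitor arrays and 4.51 in DMSO arrays, had a difference of -0.07, and the mean of both rows did not pass (adjusted p = 0.132 in limma). It was also lost with centred arrays (0.0845) and with a further quantile normalization (0.0792). Without 1 array, Gstm3 remained called without SCD inhibitor 1 and was lost without DMSO 1 (adjusted p = 0.113), DMSO 2 (0.117), DMSO 3 (0.0559), DMSO 4 (0.115), SCD inhibitor 2 (0.141) or SCD inhibitor 3 (0.137).

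Gstm1, a mu-class enzyme abundant in mouse liver, read 10.67, 10.47 and 10.60 with the inhibitor, against 10.74, 10.80, 10.89 and 10.86 in DMSO. The groups did not overlap, yet the difference of -0.24 (SE 0.0566) had an adjusted p of 0.0539 in limma. Gstm1 passed in 4 of the 16 alternatives: with the dimmest 25% or 50% of genes dropped, trend and robust options, or array weights. Gstm2 likewise had groups that did not overlap, with a difference of -0.18 (SE 0.0597) and an adjusted p of 0.14 in limma. It passed only with the replicate number as a block (adjusted p = 0.0352 in limma). Gstm6 and Gstm4, at mean levels of 3.13 and 3.93 near the lower end of the scale, had differences of -0.20 and -0.12 with overlapping groups. No detection calls were used here, so whether such dim genes were expressed is not stated.

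The theta class has its 4 members on chromosome 10 in the order Gstt3, Gstt1, Gstt4 and Gstt2. Gstt3 read 8.27, 8.18 and 8.04 with the inhibitor, against 8.44, 8.48, 8.42 and 8.59 in DMSO, with no overlap. It fell by 0.32 (SE 0.0641, adjusted p = 0.0299 in limma). The call held without SCD inhibitor 1 and was lost without DMSO 1 (adjusted p = 0.0723), DMSO 2 (0.0865), DMSO 3 (0.0655), DMSO 4 (0.0753), SCD inhibitor 2 (0.0937) or SCD inhibitor 3 (0.0738). The call of Gstt3 was also lost with the replicate number as a block. Gstt1, a theta-class enzyme that acts on small halogenated compounds, averaged 7.62 ± 0.0712 with the inhibitor and 7.67 ± 0.101 in DMSO. Gstt4 and Gstt2 had differences of -0.10 and -0.07 and did not pass, and the groups overlapped in all 3.

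The pi, omega and kappa classes held no call. Gstp1, the pi-class enzyme, read 11.66, 11.59 and 11.23 with the inhibitor, against 11.80, 11.75, 11.55 and 11.63 in DMSO. SCD inhibitor 3 was low and the other 2 inhibitor arrays fell within the DMSO range, so the interval of the difference was wide, from -0.46 to 0.08. Gsto1, an omega-class enzyme that also reduces dehydroascorbate, had a difference of -0.17 (SE 0.0536, adjusted p = 0.12 in limma) with groups that did not overlap. Gsto2, also on chromosome 19, had one of -0.10, also without overlap. Gstk1, a mitochondrial and peroxisomal transferase also known as an aid to adiponectin assembly, had a difference of -0.07 with an interval from -0.16 to 0.02. Gstp3 was the 1 soluble transferase with a positive difference, 0.14, at a mean level of 4.00 and with overlapping groups.

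The 3 membrane-bound transferases gave no call, and their differences had both signs. Mgst1, an enzyme of the endoplasmic reticulum and outer mitochondrial membrane with transferase and peroxidase activity, read 11.63, 11.73 and 11.58 with the inhibitor, against 11.53, 11.46, 11.37 and 11.43 in DMSO. All inhibitor values lay above all DMSO values. The difference of 0.20 (SE 0.0507) had an adjusted p of 0.0702 in limma with the arrays as deposited, of 0.0331 with each array centred on its median and of 0.0432 after a further quantile normalization. Mgst2, which can also make leukotriene C, had a difference of -0.18 (SE 0.0568) and an adjusted p of 0.129 in limma, or 0.0443 without SCD inhibitor 3. Mgst3 had a difference of 0.08 with an interval from -0.10 to 0.27.

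None of the 8 glutathione peroxidases passed in limma. By the unadjusted p, 2 of them were higher at 0.05 and 0 lower. Gpx1, the abundant cytosolic peroxidase, read 10.41, 10.33 and 10.20 with the inhibitor, against 10.04, 9.98, 10.08 and 10.20 in DMSO. SCD inhibitor 3 and DMSO 4 met at the same value, so the groups overlapped. The difference was 0.24 (SE 0.0667, adjusted p = 0.0886 in limma), and it passed after a further quantile normalization (adjusted p = 0.0477) but not with centred arrays. Gpx4, which reduces lipid peroxides inside membranes and protects cells from ferroptosis, read 10.89, 10.98 and 11.07 with the inhibitor, against 10.89, 10.78, 10.85 and 10.87 in DMSO. Its lowest inhibitor value equalled its highest DMSO value to 2 decimals. The difference was 0.13 in each of its 2 rows (adjusted p = 0.173 in limma for the row used). RefSeq lists pseudogenes of Gpx4, and whether they share its probes was not tested.

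Gpx8, a peroxidase of the endoplasmic reticulum, read 10.80, 10.93 and 10.97 with the inhibitor, against 11.00, 10.93, 11.07 and 11.08 in DMSO. The groups overlapped and the difference of -0.12 did not pass (adjusted p = 0.255 in limma). Gpx7, which also acts in that compartment, had a difference of 0.10 with an interval from -0.11 to 0.32. The plasma peroxidase Gpx3, the gut form Gpx2, the epididymal form Gpx5 and the olfactory form Gpx6 had group means between 3.22 and 4.68. Their differences ran from -0.08 to -0.01, and those of Gpx2 and Gpx5 changed sign without 1 array, to 0.03 for Gpx2 without SCD inhibitor 1 and to 0.01 for Gpx5 without SCD inhibitor 3. The intervals of the 4 reached no further than -0.20 and 0.09.

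Seen by class, 16 of 17 soluble transferases and all 4 genes of synthesis and recycling had negative differences, while of the 8 peroxidases 5 were negative and 3 positive. The median difference was -0.17 for the soluble transferases, -0.21 for synthesis and recycling, 0.08 for the membrane-bound transferases and -0.01 for the peroxidases. The inhibitor values lay wholly below the DMSO values in 11 members and wholly above in 1, where 9.02% and 8.30% of all genes did so. Of the 11, 8 were soluble transferases and 3 belonged to synthesis. The 10 members with a mean level below that of the median gene held no call, and all 6 calls came from the other 22. Bright genes were called more often in general. In the fit with the dimmest 50% of genes dropped, 11% of the genes kept were lower and 10.1% higher. In that fit 8 of the 22 members were lower and 2 higher. Whether the classes differ from each other was not tested.

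**Figure D3:**
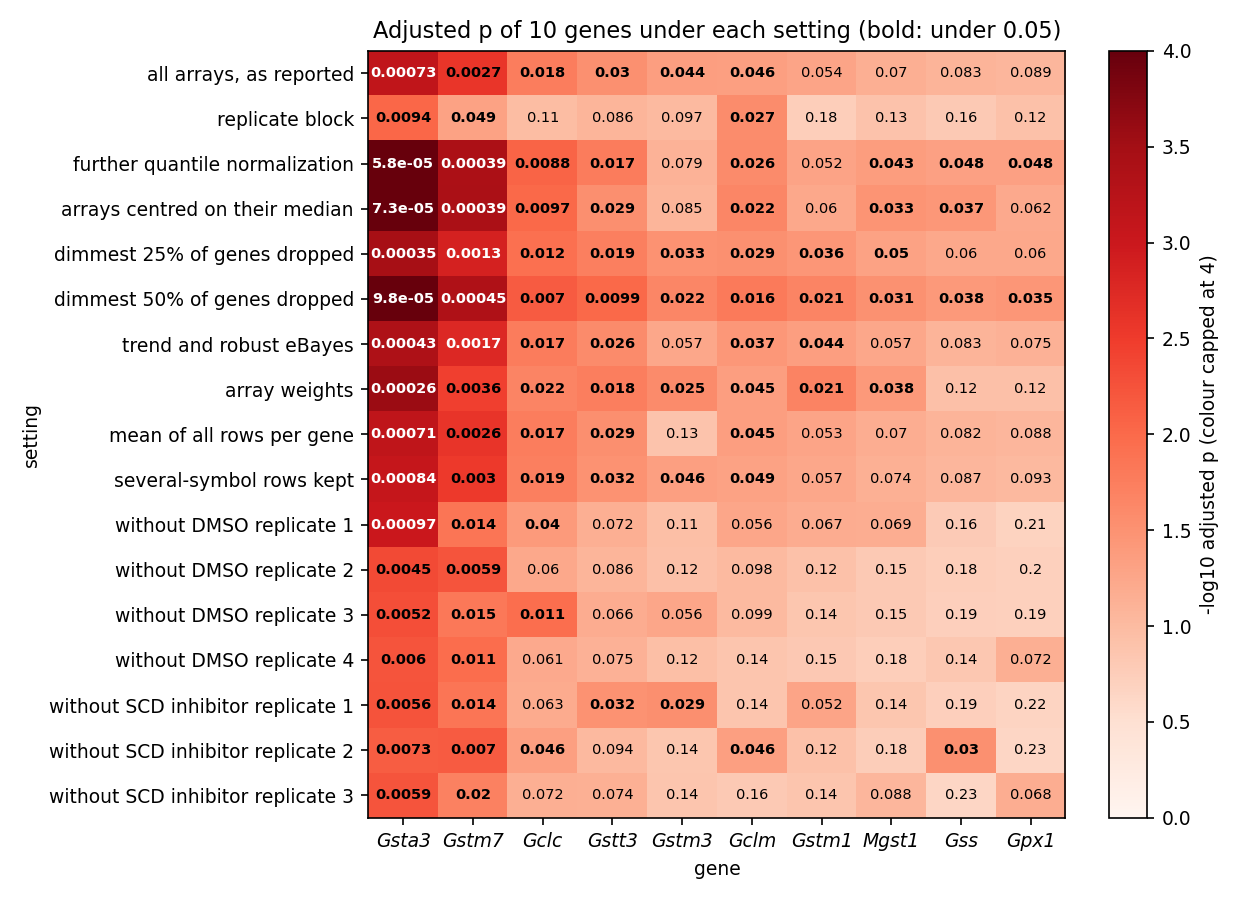
Adjusted p from limma for the 10 members with the smallest p (columns) in each fit (rows: all arrays, 9 other settings and 7 fits without 1 array), bold where under 0.05. Gsta3 and Gstm7 pass in every row, and the other 4 called genes lose their call in 5 to 11 of the 16 alternatives.

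The wider pathway was described with 9 lists of genes, 93 of which were measured. Of these 21 fell and 6 rose, beside the 4.37% and 3.62% of all genes given above. The lists were chosen with earlier results of these data known, so these counts describe the lists and are no independent support for a change. The supply of cystine and cysteine had 4 lower genes of 9 measured and none higher, with a list median of -0.13. Slc1a5, a transporter of glutamine and other neutral amino acids, read 11.05, 11.00 and 10.94 with the inhibitor, against 11.37, 11.41, 11.40 and 11.42 in DMSO, and fell by 0.40 (adjusted p = 0.000539 in limma). Cth, the enzyme that releases cysteine from cystathionine, fell by 0.43 (SE 0.0602), and Slc1a4, a transporter of serine, alanine and cysteine, by 0.31 (SE 0.0457). Slc7a11, the cystine carrier, read 5.62, 5.87 and 6.13 with the inhibitor, against 6.35, 6.59, 6.51 and 6.59 in DMSO. Its groups did not overlap, and its adjusted p of 0.0247 in limma became 0.079, 0.0787 or 0.0844 when DMSO 2, DMSO 3 or DMSO 4 was left out, and 0.0898 when SCD inhibitor 2 was.

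Of 13 genes of glutathione breakdown, 3 fell and 2 rose (3 and 3 under either other scaling), with a list median of 0.01. Chac1, which splits glutathione inside the cell, read 8.56, 8.57 and 8.49 with the inhibitor, against 9.37, 9.33, 9.33 and 9.29 in DMSO. It fell 1.73-fold (log2 difference -0.79, SE 0.0283, adjusted p = 3.66e-05 in limma). Oplah, which turns oxoproline back into glutamate, fell by 0.41 (SE 0.0515), and Dpep1, a dipeptidase that cleaves cysteinylglycine, by 0.40 (SE 0.0582). The 2 higher genes were Anpep, an aminopeptidase of the cell surface (0.42, SE 0.0949), and Cndp2, a cytosolic dipeptidase named after its value was seen. The adjusted p of Anpep was between 0.0712 and 0.159 in limma without any 1 array other than SCD inhibitor 1.

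Both called genes of conjugate export, out of 6, were lower. Abcc4, an efflux pump for glutathione conjugates and cyclic nucleotides, read 7.34, 7.52 and 7.20 with the inhibitor, against 9.16, 9.39, 9.02 and 9.18 in DMSO. It fell 3.56-fold (log2 difference -1.83, SE 0.105, adjusted p = 0.000183 in limma). Abcc1, a related pump known from drug-resistant tumour cells, fell by 0.36 (SE 0.036). The groups did not overlap for either pump. The other 4 genes of this list had overlapping groups.

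Of 17 NRF2 regulators and other NRF2 targets, 6 fell and none rose, with a list median of -0.13. They included the carbonyl reductase Cbr3 (-0.58, SE 0.0601), the epoxide hydrolase Ephx1 (-0.49, SE 0.0383) and the growth inhibitor Osgin1 (-0.47, SE 0.0701). Blvrb, a flavin and biliverdin reductase, had a difference of -0.40 and an adjusted p of 0.0161 in limma, which became 0.0538 or 0.0561 when DMSO 2 or DMSO 4 was left out, and 0.0572 or 0.0718 when SCD inhibitor 2 or SCD inhibitor 3 was. With a further quantile normalization, and likewise with centred arrays, 8 genes of this list were lower and 1 higher.

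The NADPH supply, which glutathione reductase draws on, had 1 lower and 2 higher genes of 12. Aldh1l1, a folate enzyme that yields NADPH, read 7.50, 7.70 and 7.66 with the inhibitor, against 8.95, 8.83, 8.88 and 8.84 in DMSO. It fell 2.39-fold (log2 difference -1.25, SE 0.0546, adjusted p = 6.74e-05 in limma). The mitochondrial transhydrogenase Nnt (0.22, SE 0.0391) and the cytosolic isocitrate dehydrogenase Idh1 (0.15, SE 0.03) were called higher. The call of Nnt ended in 4 of the 7 fits without 1 array (without DMSO 2, 3 or 4 or SCD inhibitor 1, with a highest adjusted p of 0.0654), and that of Idh1 in all but the fit without DMSO 4 (highest 0.0987).

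The thioredoxin, glutaredoxin and peroxiredoxin list had 2 lower and 1 higher genes of 15, with a median of 0.01, and 2 lower and 2 higher under either other scaling. Srxn1, which repairs overoxidised peroxiredoxins, fell by 0.20 (SE 0.0273) and was called in all 7 fits without 1 array. Glrx, a glutaredoxin, had a difference of -0.30 (adjusted p = 0.035 in limma) that passed in none of those fits (0.0536 to 0.0968). Prdx2, a cytosolic peroxiredoxin, had one of 0.37 (adjusted p = 0.0351) that passed only without SCD inhibitor 1 (0.0461) among those fits.

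Of 11 other glutathione-dependent enzymes 2 were lower and 1 higher. The prostaglandin E synthases Ptges2 (-0.33) and Ptges (-0.24) were the lower genes and the chloride channel protein Clic1 (0.16) was the higher. Without 1 array, Ptges2 was called in 2 of 7 fits (without DMSO 1 or 2), Ptges in 3 (without DMSO 1, DMSO 2 or SCD inhibitor 1) and Clic1 in 1 (without DMSO 1). None of 6 genes of selenoprotein synthesis, which the selenium-containing peroxidases need, passed in limma, and by the unadjusted p 3 were lower at 0.05 and 0 higher. Of 4 other antioxidant enzymes 1 was lower, the extracellular superoxide dismutase Sod3 (-0.24, SE 0.0407), and it lost its call without DMSO 3 (adjusted p = 0.0527 in limma), DMSO 4 (0.0588), SCD inhibitor 2 (0.06) or SCD inhibitor 3 (0.0617).

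**Figure D4:**
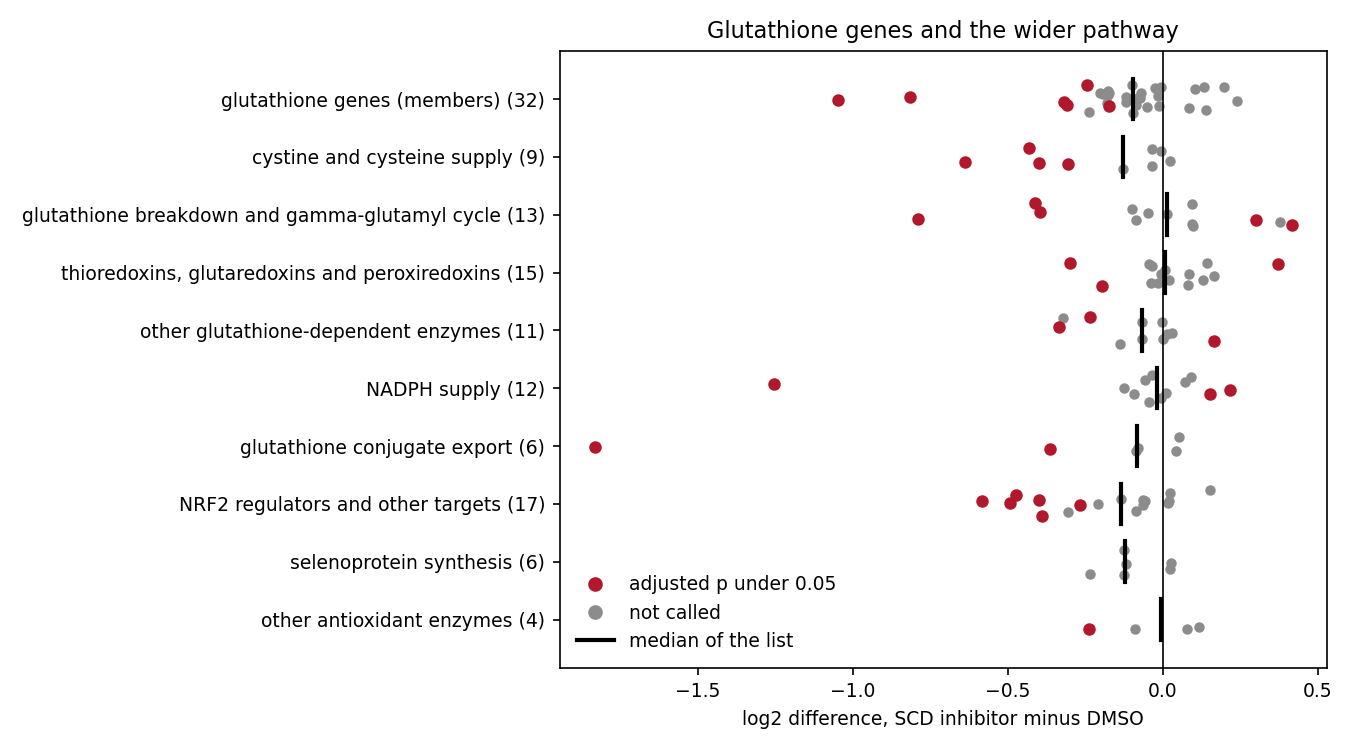
Log2 difference (SCD inhibitor minus DMSO) of the 32 members and of the measured genes of 9 related lists (number in brackets), red where the adjusted p in limma was under 0.05, with list medians as black bars. Abcc4 at -1.83, Aldh1l1 at -1.25 and Gsta3 at -1.05 lie furthest left.

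Markers of precursor cells moved with the treatment. Of 10 measured preadipocyte or fibroblast markers, 5 rose and 1 fell. The largest increase was that of Pdgfra, a growth factor receptor of precursor cells (0.89, SE 0.093), and the decrease was that of Fn1, fibronectin (-0.26, SE 0.0373). Dlk1, an inhibitor of fat cell formation, was called (adjusted p = 0.0402 in limma), but without 1 array it passed only without DMSO 1. The log2 of the summed level of the 10 markers was 13.74 to 13.77 with the inhibitor, against 13.53 to 13.60 in DMSO. That of the 9 adipocyte markers was 15.23 to 15.29 with the inhibitor, against 15.25 to 15.29 in DMSO. None of 7 macrophage, 4 endothelial, 4 hepatocyte or 4 skeletal muscle markers passed in limma. In bulk RNA a change in the share of a cell type and a change per cell cannot be told apart, and the part of the precursor markers in the glutathione differences was not tested.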

How the data were processed

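RNA of 7 samples was measured on Affymetrix whole-transcript arrays from 100 ng of total RNA, per the labels' protocols. Per the submitters' processing notes, the authors used RMA, and the deposited values are on its log2 scale; its version is not stated in the sources. They ran from 2.23 to 13.25. The array annotation gave 1 symbol to 21218 of 28996 rows; where a gene had several rows, the one with the highest mean stood for it, leaving 18820 genes with no filter on dim ones. All 32 members matched RefSeq by Entrez number. A linear model with the inhibitor as its term was fitted with limma 3.58.1 (lmFit and eBayes) in R 4.3.3, with 5 residual degrees of freedom, with Benjamini-Hochberg adjustment across every gene. The fit was tested on simulated data with independent noise and shifts larger than most called differences of the members. That test does not bear on those smaller differences or on noise shared by arrays.

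The members and lists were chosen with earlier results of these data known. All members are named; of each other list, up to 4 called genes with the largest difference, or the 2 with the smallest p. Alternatives were the replicate block, 2 scalings, 2 filters on dim genes, trend and robust options, array weights, row choices and leaving out each array. The number of arrays limits the precision; the median SE was 0.039.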

Additional observations from a re-analysis of the deposited data

Results flagged for a closer look

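In 12 of 62 genes examined, 1 DMSO array stood apart from the other 3 by more than the Dixon limit for 4 values. For values without ties, chance alone passes that limit in about 5% of groups. Of the 12, 9 were among the 32 glutathione genes. In Gpx5, Gpx6, Gsr, Gstt2 and Scd4 the gap over the range was 1.000, the other 3 values being tied. With such ties any departure passes, so the 5% does not hold there. The share over all genes was not counted, so the flags are not shown to be particular to the glutathione genes. Gsta3 was 6.83 on DMSO 1, against 7.08 to 7.12 on the other DMSO arrays, on the side of the inhibitor values; without DMSO 1 it was called as well. DMSO 1 also stood apart for Gstk1 (10.68, others 10.56 to 10.58), Gstp3 (3.80, others 3.98 to 4.00), Gpx5 (3.27, others 3.23), Scd2 (12.62, others 12.54 to 12.55) and Scd4 (3.80, others 3.81). DMSO 4 stood apart for Gstt1 (7.82, others 7.60 to 7.63), Gsr (10.92, others 10.95), Gpx6 (3.52, others 3.47) and Sephs2, a gene of selenoprotein synthesis (8.82, others 8.69 to 8.70). DMSO 2 did so for Gpx7 (6.28, others 6.60 to 6.63) and DMSO 3 for Gstt2 (4.68, others 4.43).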

How the results depend on the processing

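Gsta3 and Gstm7 were called lower in all 16 alternatives (adjusted p in limma up to 0.00942 and 0.0488), Gclc in 11, Gclm in 10, Gstt3 in 9 and Gstm3 in 5. Over the fits without 1 array, lower members numbered 2 to 5 and higher members 0; lower genes of all 541 to 643 and higher genes 369 to 712; lower genes of the related lists 15 to 20 and higher ones 0 to 4. Higher members numbered 2 with a further quantile normalization or with the dimmest 50% of genes dropped, and 1 with arrays centred on their median, the dimmest 25% dropped or array weights. Over all genes, 1106 were higher with quantile normalization and 1117 with centred arrays. The cause was not tested. Same-numbered arrays of both groups deviated together at r of 0.174, 0.138 and 0.08, so not every pair passed 0.1. SCD inhibitor 2 correlated best with DMSO 4 (0.16). All other pairs with unlike numbers had a negative r, from -0.171 to -0.008. The numbers were not taken to pair the arrays in the main fit, and whether they mark pairs was not settled. With the replicate block, 4 members were lower (Gsta3, Gstm7, Gclm and Gstm2), all genes gave 459 lower and 437 higher calls, and the related lists 12 lower and 1 higher. By list, the block left 1 lower gene of cystine and cysteine supply (4 without it), 1 lower and 0 higher of breakdown (3 and 2), 1 lower and 1 higher of thioredoxins and relatives (2 and 1), 1 lower and 0 higher of NADPH supply (1 and 2), 0 of other glutathione-dependent enzymes (2 lower and 1 higher) and 0 of other antioxidant enzymes (1 lower); the counts of conjugate export (2 lower) and NRF2 targets (6 lower) were equal. Differences near 0 changed sign: Gsr to 0.01 with centred arrays or array weights, and to values between -0.03 and 0.03 without 1 array; Gpx2 and Gpx5 to 0.01 with array weights, and within -0.07 to 0.03 and -0.06 to 0.01 without 1 array; Scd2 to 0.01 with centred arrays or array weights, and within -0.01 to 0.01 without 1 array. Of the 498 values of members under an alternative, 445 kept their sign and side of the threshold, 29 lost a call, 17 gained one and 7 changed sign. The precision is limited by 3 arrays against 4, and brightness over background is not known for these values.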

Other observations

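Rows shared by several symbols held the family genes left out above. They were tested only in the alternative that kept such rows, and no p-value of theirs is given here. The 2 rows that name Gstp1 and Gstp2 together averaged 10.55 and 10.69 in inhibitor arrays and 10.65 and 10.78 in DMSO arrays, each a difference of -0.09, beside -0.19 for the row of Gstp1 alone. The row of Gstz1, the zeta-class enzyme of tyrosine breakdown, is shared with Pomt2 and averaged 11.38 with the inhibitor and 11.49 in DMSO. The row of Gstm5, a mu-class gene, is shared with an unnamed clone and averaged 8.71 with the inhibitor and 8.72 in DMSO, a difference of -0.01. The 4 rows that name Gsta1 and Gsta2 had group means between 3.90 and 4.46 and differences between -0.03 and -0.02, so the fall of Gsta3 had no counterpart of its size in the rows of these alpha-class genes, all of which lay near the lower end of the scale. Whether that level allows a fall to be seen was not tested.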
